A study of Homo sapiens with 4 samples.

Results

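The open chromatin around 10 genes of the bone morphogenetic protein (BMP) pathway was examined in human pancreatic progenitors cultured with or without the BET bromodomain inhibitor I-BET151. The genes were the ligands BMP2, BMP4 and BMP7, the receptors BMPR1A and BMPR2, the inhibitors NOG and SMAD6, and the target genes ID1, ID2 and ID3. Peaks of all 4 lists were merged into 164301 regions, and the 86 merged regions that overlapped one of these genes or the 20 kb on either side of it (GENCODE release 44, hg38) were taken as members. The rule uses position alone and no measure of peak strength.

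The cells were progenitors derived from MEL1, an established human embryonic stem cell line, so that every library comes from 1 line. The study's methods name the line MEL1 INS GFP/W, which carries a GFP reporter at the insulin gene. All cultures received the EF6 basal medium with B27, EGF, bFGF and 616452, an inhibitor of the TGFβ type I receptor, and were given DMSO or 1 μM I-BET151 for 7 days. There were 2 ATAC-seq libraries per condition, and the labels do not say whether they came from separate cultures, so the spread between them may be technical. The methods describe growth of the expanded progenitors on feeder cells. ATAC-seq marks accessible DNA by the insertion of adapters with the Tn5 transposase. The authors called peaks with MACS2 in each library on its own, and each peak has a fold enrichment, the read pileup at its summit over the local background.

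BMP ligands bind a complex of type I and type II receptor kinases, which phosphorylates SMAD1, SMAD5 and SMAD9. These move with SMAD4 to GC-rich elements and switch on target genes, of which ID1, ID2, ID3 and the inhibitory SMAD6 are the best known. ID proteins bind basic helix-loop-helix factors and hold them off DNA, and thereby delay differentiation. During pancreas formation BMP signals favour liver over pancreas in the foregut endoderm, and the inhibitor Noggin, the product of NOG, is a common component of protocols that direct stem cells to the pancreas.

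The lists differed in length and depth. They held 82568 and 38295 peaks with DMSO (replicates 1 and 2) and 84995 and 111324 peaks with I-BET151. The genome-wide background of the lists corresponded to 38.7 and 36.6 M reads with DMSO and to 12.5 and 16.0 M with I-BET151 (M, 1e+06 reads). The median fold enrichment was 3.88 and 4.08 with DMSO and 5.56 and 6.03 with I-BET151. Values are therefore given as the percentile of a region by fold enrichment within its own list, and a region absent from that list counts as 0. The locus score of a gene is the mean percentile of its regions. A start-site region was called in 7, 6, 8 and 8 of 9 pancreatic progenitor marker genes (DMSO replicates 1 and 2, then I-BET151 replicates 1 and 2) and in 0, 0, 0 and 1 of 4 pluripotency genes. The corresponding counts were 1, 0, 2 and 1 of 5 endocrine, 2, 1, 1 and 1 of 4 hepatic and 3, 2, 4 and 4 of 5 mesenchymal genes. The part of these other cell types in the results was not tested.

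Sequence was read from hg38 around the summits to show where the BMP pathway's own elements lie in these loci. The SMAD element of BMP target genes, GGCGNC followed after 5 bases by GTCT, was searched on both strands within 100 bp of each summit. It occurred in 3 of the 86 member regions (3.49%) and in 117 of all 164301 regions (0.0712%). The gene list was chosen to hold BMP target genes, so a higher share of their element is no independent result. The member regions were also richer in G and C, with a median of 55.0% against 48.3%. The 3 carriers lie at ID1 and ID3, and capitals mark the element and the shorter motif GGCGCC, which overlaps it in both ID3 windows. They are given on the plus strand, ID1 at chr20:31604264-31604414 and ID3 at chr1:23562435-23562585 and chr1:23554911-23555061.
ID1 upstream region: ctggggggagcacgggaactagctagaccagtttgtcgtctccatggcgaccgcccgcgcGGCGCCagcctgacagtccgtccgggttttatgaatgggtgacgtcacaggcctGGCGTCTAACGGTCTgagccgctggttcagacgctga
ID3 upstream region: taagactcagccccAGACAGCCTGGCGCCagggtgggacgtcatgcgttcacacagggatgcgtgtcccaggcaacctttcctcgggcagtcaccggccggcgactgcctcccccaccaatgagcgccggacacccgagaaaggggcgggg
ID3 downstream region: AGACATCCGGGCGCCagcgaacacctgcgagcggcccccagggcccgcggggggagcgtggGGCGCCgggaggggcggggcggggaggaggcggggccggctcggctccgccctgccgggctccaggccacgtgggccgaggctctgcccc

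Read on the strand of the element, these were GGCGTCtaacgGTCT at ID1, centred at −904 bp relative to the canonical start, GGCGCCaggctGTCT at ID3, at −2955 bp, and GGCGCCcggatGTCT at ID3, 4583 bp past the start and beyond the gene's end. Both ID3 elements are on the minus strand, the coding strand of ID3. The palindrome GTCTAGAC, the preferred binding sequence of SMAD3 and SMAD4, occurred in 1 member region (1.16%), at the start of SMAD6, and in 0.166% of all regions. It is also in the RefSeq promoter of SMAD6 (GRCh38.p14), 1 of the 7 genes for which RefSeq promoters were matched, and in 0.202% of all 35116 promoters. The window at chr15:66702145-66702235 on the plus strand, which ends at the base before the canonical start, shows it in capitals.
SMAD6 start region: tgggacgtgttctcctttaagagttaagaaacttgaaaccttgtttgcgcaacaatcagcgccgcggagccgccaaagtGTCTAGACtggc

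GGCGCC alone was in 14.0% of the member regions and in 3.91% of all regions. Motifs of endoderm factors were not more frequent in the member regions: AGATAA, the core of zinc finger factors of the endoderm, was in 14.0% against 14.2%. The forkhead motif TGTTTAC was in 3.49% against 4.63%. The ONECUT core ATTGAT was in 3.49% against 9.21%, and the CTCF consensus in 1.16% against 1.89%. These are exact letter matches and no evidence of binding.

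In the 4 lists 48, 31, 46 and 70 of the 86 regions were called. All 4 lists shared 25 of them (29.1%), where 15.6% of all merged regions were shared. Another 10 regions (11.6%) were called in both I-BET151 libraries and in neither DMSO library, against 17.0% of all regions. The reverse pattern, both DMSO libraries and neither I-BET151 library, was found in 3 regions (3.49%) against 2.37% of all. I-BET151 replicate 2 alone called 22 regions (25.6%), against 22.3% of all. The share present in every list was thus above that of the genome and the share called only with I-BET151 below it, over regions that cluster at 10 loci. Member regions lay nearer to a start site, at a median of 10314 bp against 22961 bp for all regions. Among all regions the median was 4820 bp for those in every list and 29652 bp for those called only with I-BET151. The part of this distance in the shares was not tested. A region that was not called lies under the threshold of its list and may still be open, and in bulk cultures fewer cells with an open site and a less open site per cell cannot be told apart. Leaving out 1 library asks fewer lists to meet the rule, so the counts can hardly fall. Regions called only with I-BET151 then numbered 32 without I-BET151 replicate 1, 16 without I-BET151 replicate 2 and 15 without DMSO replicate 1. The number called only with DMSO was 12 without DMSO replicate 2. Between the replicate 1 libraries, 16 regions were in the I-BET151 list alone and 18 in the DMSO list alone, and between the replicate 2 libraries 42 and 3. The I-BET151 share of these was 47.1% and 93.3%, against 51.2% and 92.7% over all merged regions.

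Both I-BET151 locus scores lay above both DMSO scores for 6 of the 10 genes (BMP2, BMP7, BMPR1A, ID2, ID3 and SMAD6), where 51.3% of the 18865 protein-coding genes with a region did so. Both lay below for 1 gene, ID1, where 2.96% of all genes did so. The mean score over the 10 genes was 22.4 and 14.5 with DMSO and 22.7 and 28.4 with I-BET151. The groups did not overlap, and the difference was 7.12 (18.4 ± 5.57 against 25.6 ± 4.10, SD, n = 2). Over all genes the mean score was 31.4 and 19.5 with DMSO and 33.0 and 40.0 with I-BET151, a difference of 11.1. An exact two-sided permutation test gave p = 0.333, the smallest value that 2 against 2 libraries allow. For single genes it gave 0.333 where the groups did not overlap, 0.667 for BMP4 and NOG, and 1 for BMPR2. The difference was 0.284 between the replicate 1 libraries and 14.0 between the replicate 2 libraries, and 13.5 without DMSO replicate 1 and 3.18 without DMSO replicate 2. With the same number of peaks from every list it was −3.49, so its sign was not independent of list length.

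**Figure D1:**
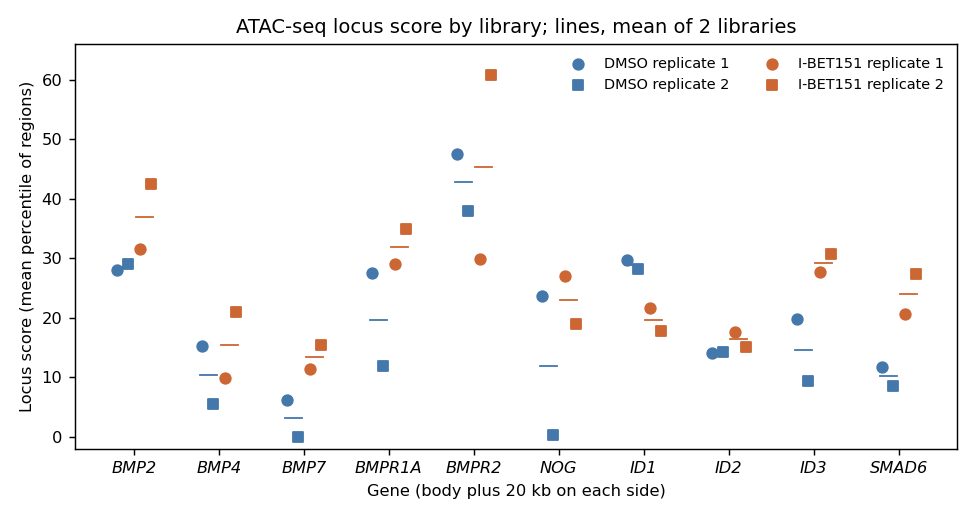
Locus score (mean within-list percentile by fold enrichment, y axis) of each gene (x axis), with blue for DMSO, orange for I-BET151, circles for replicate 1, squares for replicate 2 and lines for the means of 2 libraries. ID1 is the gene with both I-BET151 scores (21.6 and 17.8) below both DMSO scores (29.7 and 28.1).

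Among the ligands, BMP2 (ENSG00000125845, chr20:6767686-6780246), which signals through BMPR1A and acts in bone and endoderm, had locus scores of 28.0 and 29.0 with DMSO and 31.5 and 42.5 with I-BET151. Its 3 regions moved apart. A region upstream of the gene (chr20:6761995-6762457, summit at −5479 bp) was not called with DMSO and stood at percentiles 49.8 and 72.5 with I-BET151, with folds of 5.52 and 8.21. In the region over the first exon (chr20:6767414-6768348) the percentiles were 37.0 and 60.3 with DMSO and 37.0 and 39.0 with I-BET151. In the region over the second, coding exon (chr20:6769903-6770609) they were 47.1 and 26.8 against 7.75 and 16.1. So the higher BMP2 score rested on the upstream region, and the coding-exon region ranked lower in both I-BET151 libraries, without passing limma's test (adjusted p = 0.0522).

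BMP4 (ENSG00000125378, chr14:53949736-53958761, minus strand), the ligand used to induce mesoderm and trophoblast and a signal for hepatic fate, had overlapping locus scores of 15.2 and 5.44 with DMSO and 9.97 and 20.9 with I-BET151. Its region at the canonical start (chr14:53956462-53957126, summit at −98 bp, within the antisense long noncoding gene ENSG00000287156) was the 1 member region of the 25 shared ones that passed limma's test. Its percentile was 63.9 and 28.1 with DMSO and fell to 4.05 and 9.92 with I-BET151, so both I-BET151 values were below both DMSO values. The fold enrichment there was 4.27 and 3.44 against 3.60 and 3.64, on pileups of 39 and 30 against 25 and 40 reads, while the median fold of the lists was higher with I-BET151. Per M reads the pileup was 1.01 and 0.820 against 2.01 and 2.50. Relative to the median shared region this change was −0.58 and −0.64 on the log2 scale in the replicate 1 and replicate 2 pairs. These values stood at percentiles 21.9 and 10.2 of all shared regions. By this measure the strongest distal ID3 region (−1.04 and −1.33) was lower still. So was a region in intron 3 of SMAD6 (chr15:66772859-66773801, −0.85 and −0.86). The local background of the BMP4 start region was 2.92 and 2.54 against 6.74 and 6.77 times the genome-wide level. The difference in normal scores of the ranks among the shared regions was −1.74 (SE 0.385), with an adjusted p of 0.0218 by limma over 25627 of them. The call was lost without DMSO replicate 1 (adjusted p = 0.198) and without DMSO replicate 2 (adjusted p = 0.0520), with ranks by −log10 p (adjusted p = 0.139) and with the pileup in place of the rank (adjusted p = 0.122). The window at chr14:53956848-53956998, plus strand, is shown because this region carries the only call, and it holds none of the motifs searched.
BMP4 start region: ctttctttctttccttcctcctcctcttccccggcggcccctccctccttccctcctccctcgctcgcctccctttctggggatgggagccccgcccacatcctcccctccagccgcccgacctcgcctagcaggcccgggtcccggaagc

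Within BMP4, a second shared region had the opposite order. It lies in the first intron of the canonical transcript, 3292 bp past the canonical start (chr14:53953061-53954284) and 78 bp from an alternative start of BMP4. Its percentile was 9.73 and 9.98 with DMSO and 65.7 and 51.6 with I-BET151, with folds of 2.98 and 2.96 against 6.67 and 6.20 (limma adjusted p = 0.158). The 2 regions can be set against each other inside each library, which needs no scaling between libraries. The pileup of the intronic region was 0.744 and 0.933 times that of the canonical start with DMSO and 1.80 and 1.68 times with I-BET151. The intronic region thus had the larger pileup in both I-BET151 libraries (45 against 25 and 67 against 40 reads) and the smaller one in both DMSO libraries (29 against 39 and 28 against 30 reads), where the difference was within counting error in both. This pair was singled out after its values were seen and carries no test. The strongest distal BMP4 region (chr14:53971594-53971913, summit at −14898 bp) was at percentile 32.9 in DMSO replicate 1 and 21.7 in I-BET151 replicate 2 and was not called in the other lists. The other 4 regions, 3 downstream and 1 upstream, were called in I-BET151 replicate 2 alone, at percentiles from 2.29 to 24.7.

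BMP7 (ENSG00000101144, chr20:57168753-57266641, minus strand), a ligand with roles in kidney and brown fat, had no region shared by all 4 lists among its 13. Its locus scores were 6.26 and 0 with DMSO, where replicate 2 called nothing at the locus, and 11.4 and 15.4 with I-BET151. At its start site (chr20:57266487-57266847) a region was called in I-BET151 replicate 2 only, at percentile 1.06. In its introns, 3 regions were called only with I-BET151. The strongest of them, in the second intron (chr20:57210015-57210484), reached percentiles of 77.6 and 60.0, with folds of 7.98 and 6.86. One in the first intron (chr20:57244386-57244918) reached 12.8 in both libraries, and another (chr20:57234489-57235023) 9.95 and 27.0. BMP7 thus showed weak or no calls at its start and its strongest region with I-BET151 far inside the gene.

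Of the receptors, BMPR1A (ENSG00000107779, chr10:86756596-86932825), a type I receptor kinase, had locus scores of 27.5 and 11.9 with DMSO and 29.0 and 34.9 with I-BET151. The region upstream of its start (chr10:86755638-86756810, summit at −843 bp, within the noncoding gene ENSG00000272631) was called throughout, at percentiles 78.7 and 49.2 against 59.1 and 67.3, and did not separate the conditions. The same held for the strongest distal region, in the first intron (chr10:86774965-86775801), at 89.6 and 73.9 against 78.5 and 89.5. There were 3 regions called only with I-BET151. The first, also in the first intron (chr10:86795348-86795789), was at 80.1 and 68.6, and the second, in the second intron (chr10:86868275-86868727), at 49.7 and 26.7. The third (chr10:86945548-86945960) lies downstream within MMRN2, a gene of the extracellular matrix of blood vessels, at 36.3 and 24.2. A shared region of MMRN2 (chr10:86939462-86939929) ranked at 68.6 and 55.4 with DMSO and 87.3 and 90.7 with I-BET151 (limma adjusted p = 0.216). Part of the BMPR1A score therefore came from regions that lie over the neighbouring gene.

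BMPR2 (ENSG00000204217, chr2:202376327-202567751), the type II receptor for BMP ligands, had overlapping scores of 47.6 and 37.9 with DMSO and 29.9 and 60.8 with I-BET151, and the difference was −15.1 without I-BET151 replicate 2 and 18.0 without I-BET151 replicate 1. Its start-site region (chr2:202375114-202376851) had percentiles of 89.0 and 71.3 against 64.7 and 69.8, lower in both I-BET151 libraries (limma adjusted p = 0.129). The region in its intron 3 (chr2:202494271-202494988) had 73.3 and 57.3 against 84.7 and 98.0, higher in both (limma adjusted p = 0.138). Neither difference passed the test. A first-intron region (chr2:202381433-202381767) was called only with DMSO, at percentiles of 75.7 and 61.1 and folds of 4.79 and 4.50. Of the 3 regions called only with DMSO, it had the highest fold.

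The inhibitors act at separate steps, Noggin by trapping ligands outside the cell and SMAD6 by blocking the receptor and SMAD1 inside it. At NOG (ENSG00000183691, chr17:56593699-56595611) the score was 23.7 and 0.308 with DMSO and 27.1 and 19.0 with I-BET151, so the groups overlapped, and the difference was −0.585 without DMSO replicate 2 and 37.9 without DMSO replicate 1. The score of DMSO replicate 1 came from 2 regions far upstream, called in that library alone at percentiles 63.6 and 54.7. At the gene itself the libraries were ordered otherwise. Over the first exon (chr17:56593584-56594224) the percentile was 0 and 1.54 with DMSO and 54.6 and 61.6 with I-BET151, with folds of 5.74 and 7.04 with I-BET151. Just upstream (chr17:56592543-56592952, summit at −1019 bp) a region was called only with I-BET151, at 63.5 and 33.6. Both regions at the NOG start were therefore higher in both I-BET151 libraries, although the locus score was not. The upstream region, shown at chr17:56592605-56592755 on the plus strand, is the single member region with the CTCF consensus (in capitals). Over all merged regions the motif was in 4.23% of those called only with I-BET151 and in 2.40% of those in every list. It was in 0.385% of those called only with DMSO and in 1.22% of the others.
NOG upstream region: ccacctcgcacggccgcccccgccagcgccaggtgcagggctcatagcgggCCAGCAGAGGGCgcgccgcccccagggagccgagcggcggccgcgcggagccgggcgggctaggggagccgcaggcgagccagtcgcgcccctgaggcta

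SMAD6 (ENSG00000137834, chr15:66702236-66782849) had locus scores of 11.7 and 8.56 with DMSO and 20.7 and 27.3 with I-BET151, and the groups did not overlap. Its start-site region with the SMAD palindrome (chr15:66700928-66702511) was called in all lists at 57.9 and 35.8 against 68.0 and 55.2, which overlap (limma adjusted p = 0.945). The strongest distal region, in intron 3 (chr15:66765688-66766352), was at 44.6 and 44.5 with DMSO and 71.1 and 68.9 with I-BET151. Both I-BET151 values were above both DMSO values, and the difference of normal scores, 0.27 with SE 0.389, did not pass the test (limma adjusted p = 0.705). A first-intron region (chr15:66707431-66707930), which holds GGCGCC and AGATAA near its summit, was called only with I-BET151, at 55.3 and 37.8. With equal numbers of peaks per list the SMAD6 difference of 13.9 became −3.12.

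ID1 (ENSG00000125968, chr20:31605283-31606515), a direct target of the BMP SMAD proteins, had 10 regions within 20 kb. Its locus scores were 29.7 and 28.1 with DMSO and 21.6 and 17.8 with I-BET151, so both I-BET151 libraries were below both DMSO libraries. The difference of −9.23 stood at the 5.38th percentile of the differences of all genes, whose median was 10.7. The difference stayed between −11.1 and −7.35 when any 1 library was left out, but it was 0.484 with ranks by −log10 p and 4.31 with peaks of −log10 p of at least 10. With 50 kb taken around the gene it was −0.605. The sign at ID1 therefore depended on the measure of peak strength and on the peak threshold, and its size also on the distance taken.

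The ID1 region with the SMAD element (chr20:31604060-31604651, summit at −950 bp) was called in every list. Its percentile was 48.3 and 60.1 with DMSO and 25.9 in both I-BET151 libraries, which lie well apart (difference of normal scores −1.28, SE 0.411, limma adjusted p = 0.0759). Its fold enrichment was 3.87 and 4.44 with DMSO and 4.53 and 4.63 with I-BET151, so the fold itself was slightly higher with I-BET151 and its rank lower, beside list medians of 3.88 and 4.08 with DMSO and 5.56 and 6.03 with I-BET151. The pileup was 52 and 62 reads with DMSO and 65 and 137 with I-BET151. Per M reads the pileup was higher with I-BET151 by 1.96 and 2.34 on the log2 scale in the replicate 1 and replicate 2 pairs, where the median shared region of the genome was higher by 1.57 and 2.25. Read against that common shift, the ID1 element region was 0.38 and 0.09 higher.

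The local background that MACS2 divides by also moved at ID1. The median local background of its called regions was 3.25 and 3.87 times the genome-wide level with DMSO and 14.7 and 15.2 times with I-BET151. The change of 2.07 on the log2 scale ranked at the 99.8th percentile of 16265 genes called in every list, with a median of 0.34. ID2 was next, with 3.29 and 2.81 against 9.21 and 11.1 times, a change of 1.74 at the 99.1st percentile. BMP2 had 1.9 and 1.86 against 4.81 and 5.26 times (1.42, 96.6th percentile), and NOG 1.21 and 2.39 against 3.97 and 3.68 times (1.17, 92.0th percentile). The values were 2.99 and 2.66 against 3.29 and 4.22 times at SMAD6 (0.40, 54.8th percentile). At ID3 they were 2.55 and 2.43 against 4.64 and 2.03 times (0.31, 47.1st percentile) and overlapped. At BMP4, BMPR1A and BMPR2 the change was 0.11, 0.14 and 0.27 (32.1st, 34.4th and 44.7th percentile), below the median gene. In the ID1 region with the SMAD element alone the multiple was 4.43 and 4.17 against 14.7 and 19.0 times. These are multiples of each library's own genome-wide level, not read numbers: the background of that region was 12.7 and 13.2 reads with DMSO and 13.6 and 28.8 with I-BET151. The background describes called regions only, and its part in the lower rank of ID1 was not tested beyond the alternatives given above.

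Elsewhere at ID1, the start-site region proper (chr20:31605047-31605480) ranked low by fold wherever it was called. It was not called in DMSO replicate 1 and was at percentiles 0.593, 1.32 and 2.01 in the others. Its pileup there was 34, 47 and 91 reads, where the median peak of those lists had 22, 13 and 20. Its local background was 4.22, 14.8 and 19.0 times the genome-wide level, so the low percentile does not mean few reads. The strongest distal region (chr20:31594772-31595343, summit at −10253 bp) was at 41.2 and 58.1 against 72.5 and 47.6 and did not separate the conditions. Its neighbour (chr20:31595803-31596551) was higher in both I-BET151 libraries, at 35.6 and 37.5 against 51.7 and 63.9 (limma adjusted p = 0.934). Downstream, the region with summit 14680 bp past the start (chr20:31619865-31620159) was called only with DMSO, at 63.5 and 47.6, on pileups of 19 and 17 reads. The region with summit at 5598 bp (chr20:31610581-31611060) was at 30.3 and 9.69 with DMSO. With I-BET151 it was not called in replicate 1 and at 4.28 in replicate 2, so both were below both DMSO values. The other regions downstream, with summits at 2133, 3476 and 7730 bp, overlapped between conditions. The lower ID1 score thus did not come from a common order of its regions.

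ID2 (ENSG00000115738, chr2:8678845-8684461), a second target and a regulator of lymphoid and neural differentiation, had locus scores of 14.1 and 14.3 with DMSO and 17.7 and 15.1 with I-BET151, a difference of 2.19 that became −11.0 with equal numbers of peaks. Its start-site region (chr2:8681750-8682153) was at 30.6 and 37.9 against 57.1 and 33.2 and overlapped between conditions. A region near an upstream alternative start, over the antisense gene ID2-AS1 (chr2:8678774-8679423), was at 36.9 and 53.0 against 7.80 and 39.6 (limma adjusted p = 0.0986). One region downstream (chr2:8693419-8693856) was called only with I-BET151, at 60.9 and 35.8 on pileups of 11 and 12 reads. One upstream (chr2:8660079-8660540) was called only with DMSO, at 21.9 and 6.67. ID2 thus had calls of both kinds and no region that passed the test.

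ID3 (ENSG00000117318, chr1:23557926-23559501, minus strand), the third target, had locus scores of 19.9 and 9.31 with DMSO and 27.8 and 30.7 with I-BET151, without overlap. Both ID3 regions with a SMAD element ranked higher in both I-BET151 libraries, and the one at ID1 lower; this difference was not tested. The downstream region (chr1:23554575-23555333) was at 4.43 and 0.786 with DMSO and 34.6 and 17.2 with I-BET151 (limma adjusted p = 0.324). By pileup per M reads against the common shift it was at −0.03 and 0.03 on the log2 scale, so the order of ID1 and ID3 by rank did not hold by pileup. The upstream region (chr1:23562203-23562731) was at 32.3 and not called with DMSO and at 58.3 and 40.4 with I-BET151. The start-site region (chr1:23559430-23559767) ranked low by fold in all lists, at 4.43 and 0.803 against 9.22 and 12.2 (limma adjusted p = 0.748). Its pileups were 34 and 28 against 28 and 61 reads. The strongest distal region (chr1:23539732-23540275), closer to the start of the cell cycle gene E2F2, was at 88.2 and 65.6 against 67.9 and 56.5 and overlapped (limma adjusted p = 0.124). With equal numbers of peaks per list the ID3 difference of 14.7 became −7.15.

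**Figure D2:**
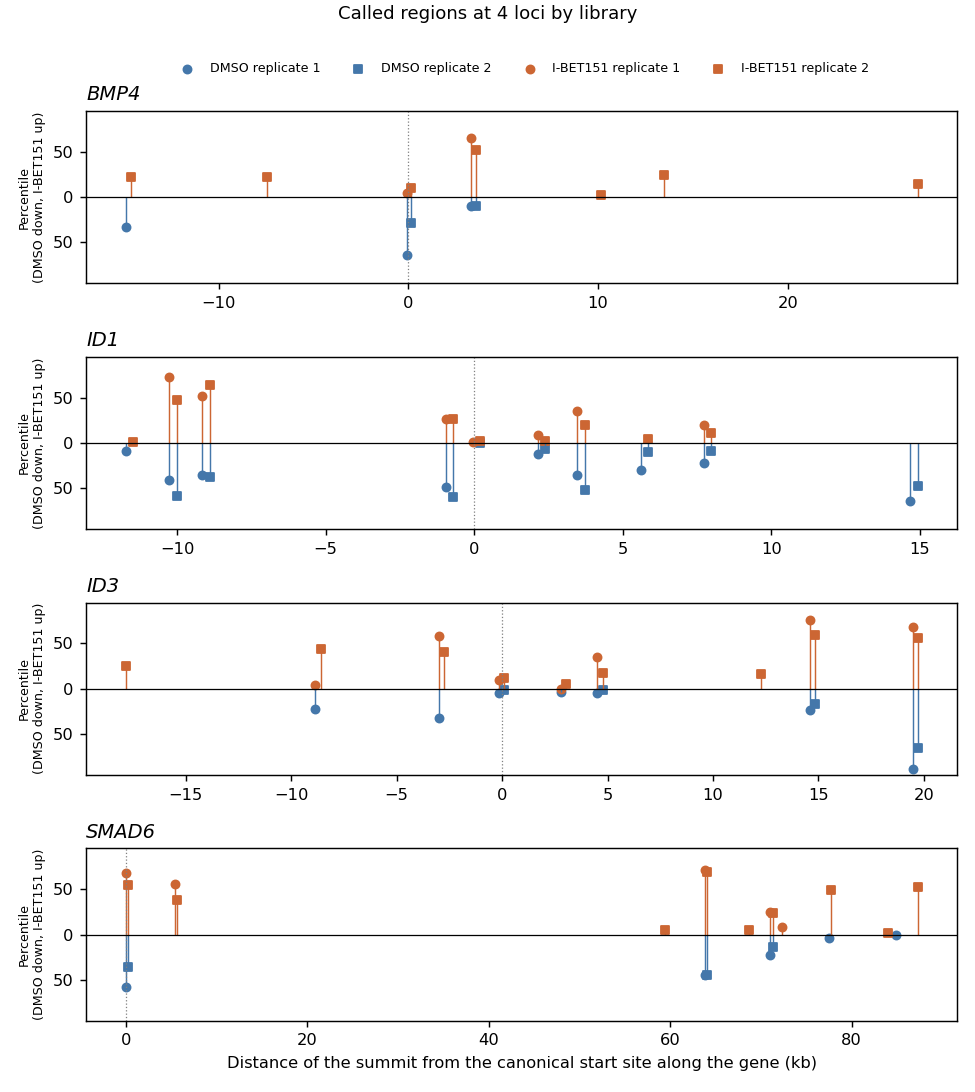
Percentile of each called region (vertical distance from 0; DMSO downward in blue, I-BET151 upward in orange; circles, replicate 1; squares, replicate 2, drawn 0.25 kb to the right) against the distance of its summit from the canonical start in kb at BMP4, ID1, ID3 and SMAD6. At BMP4 the region at the start is long below 0 with DMSO (63.9 and 28.1) and the intronic one long above it with I-BET151 (65.7 and 51.6).

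Over the 25 shared regions, 9 had both I-BET151 percentiles above both DMSO percentiles, where 40.8% of all shared regions did so, and 5 had both below, where 10.3% of all did so. The median percentile difference was 2.27 against 6.21 for all shared regions, so the shift in rank was smaller among the members. Limma called 0 regions upward and 1 downward (the BMP4 start), where 3.41% and 1.96% of all shared regions were called, and at an unadjusted p under 0.05 there were 2 upward and 7 downward, where 13.0% and 11.9% of all shared regions were. The median difference of normal scores was −0.35 against −0.03 for all shared regions. By pileup per M reads the members stood where the genome did, at 1.54 and 2.27 on the log2 scale against 1.57 and 2.25. Of the shared member regions 40.0% had their summit within 1 kb of a start site, against 42.4% of all shared regions.

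**Figure D3:**
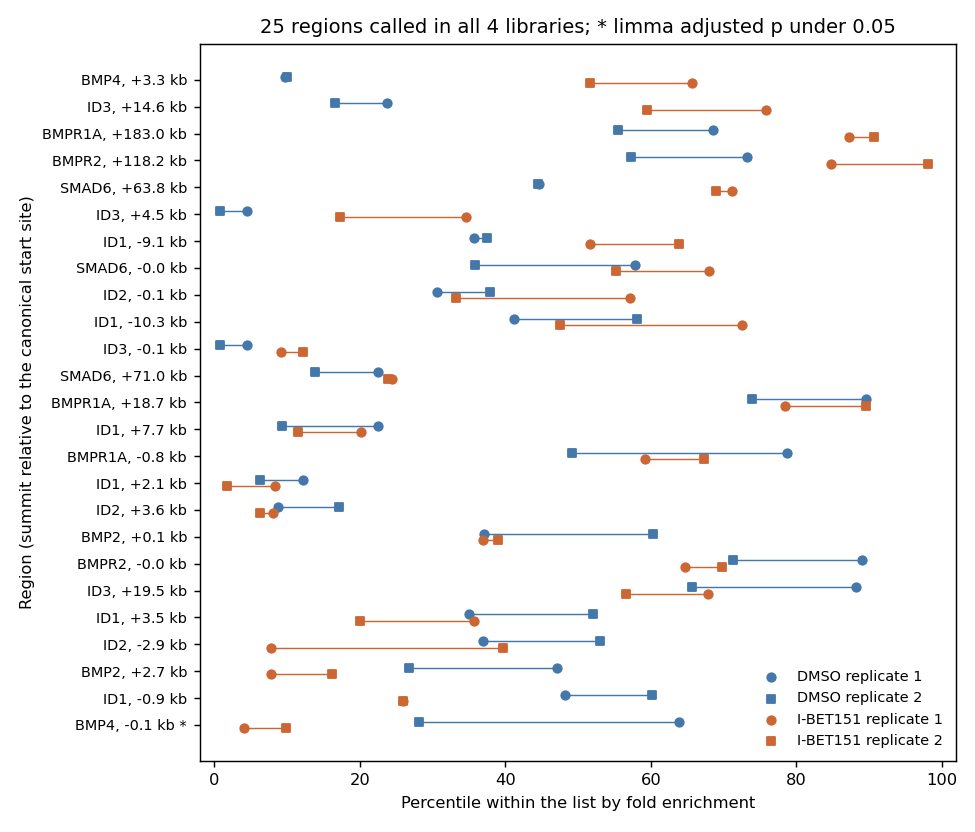
Percentile by fold enrichment (x axis) of the 25 member regions called in all 4 libraries (y axis, gene and distance of the summit from the canonical start, ordered by the difference of means), with blue for DMSO, orange for I-BET151, circles for replicate 1 and squares for replicate 2; a line joins the 2 libraries of a condition. The BMP4 start region, at the bottom, is the one with limma's adjusted p under 0.05, and the intronic BMP4 region is at the top.

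A wider list of 33 further ligands, receptors, SMAD proteins, antagonists and targets of the pathway gave 285 regions, of which both I-BET151 lists and no DMSO list held 66 (23.2%, against 17.0% of all regions), and the reverse was true of 3 (1.05%, against 2.37%). Both I-BET151 locus scores were above both DMSO scores for 22 of these 33 genes (66.7%, against 51.3% of all genes), below for 0 (2.96% of all genes) and overlapping for 11, with a median difference of 16.3 against 10.7 for all genes. The highest differences were at NBL1, a secreted BMP antagonist, with scores of 24.1 and 15.0 against 52.3 and 63.2, and at BMP5, a ligand, with 0 and 5.74 against 42.5 and 38.0. The lowest were at FSTL3, a binding protein of activin and related ligands, with 50.1 and 30.9 against 28.9 and 41.1, and at TWSG1, a modulator of BMP ligands outside the cell, with 46.5 and 18.2 against 27.0 and 33.0, both overlapping. The wider list was not run under the alternatives. For the 10 genes, equal numbers of peaks turned the mean difference of 7.12 into −3.49 and the count of genes above from 6 to 1.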

How the data were processed

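ATAC-seq was analysed in 4 libraries of pancreatic progenitors derived from MEL1 (MEL1 INS GFP/W in the methods), 2 with DMSO and 2 with 1 μM I-BET151, grouped by the sample titles. The authors aligned reads to hg38 with Bowtie2 (2.2.5), discarded duplicate and mitochondrial reads, and ran MACS2 (2.1.2) on each library without a control. The deposited lists give for each peak the fold enrichment (a ratio), the p-value and q-value as −log10, and a display score, which was not used. The methods state p of 1e-05, whereas the lists reach down to q of 0.05. The shortest peaks of the replicate 1 lists measured 200 bp, those of the replicate 2 lists 233 bp (DMSO) and 256 bp (I-BET151).

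Autosomal, X and Y peaks that shared 1 bp were joined into regions (Python 3.11.15, numpy 2.4.6, scipy 1.17.1, pandas 2.3.3). Pileup and background were solved from fold and p-value (100% of peaks within 0.01 in −log10 p), and read numbers from the lowest background with the MACS2 genome size of 2700000000 bp; they scale with that size. Pileups of 7 to 146 reads carry counting error not contained in the SD of 2 libraries. Regions called in all lists were tested by limma 3.58.1 under R 4.3.3 with eBayes moderation. The threshold was 0.05 after Benjamini-Hochberg adjustment over all 25627. The tested values were normal scores of the fold, ranked within each list among these shared regions alone. Percentiles rank all peaks of a list, so a limma p is no test of the percentile difference beside it. At the SMAD6 start the difference was −0.0619 in normal scores and 14.8 in percentile. The steps were tested on simulated data. Locus scores were compared by exact permutation tests. Regions described for each gene were the one at the canonical start, the strongest distal one, up to 2 called only with I-BET151 and up to 2 only with DMSO by fold, and any called by limma; others were added after their values were seen. The wider pathway list names its 2 highest and 2 lowest genes. The members and lists were chosen with earlier results of these data known. Alternatives were stricter thresholds, equal numbers of peaks, a coverage minimum, other measures of strength, other distances, each library left out and a replicate block.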

Additional observations from a re-analysis of the deposited data

How the results depend on the processing

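Direction and count depended on list length and on the distance taken around a gene. The mean locus score difference (7.12) was 13.1 with −log10 p of at least 10, 12.9 when peaks had to cover at least 50% of a region and −3.49 with equal numbers of peaks; leaving out 1 library gave 3.18 to 13.5. Single genes changed sign with equal numbers of peaks (BMP2 −11.6, BMP4 −8.11, BMPR2 −11.4, ID2 −11.0, ID3 −7.15, SMAD6 −3.12), at 5 kb (BMP2 −17.8, ID2 −3.93), within 3 kb of start sites (BMP2 −17.8, ID2 −3.93, BMPR1A −0.713, BMPR2 −12.8) and, for ID1, with −log10 p of at least 10 (4.31) or ranks by −log10 p (0.484). Without 1 library BMPR2 (−2.26 without DMSO replicate 2, −15.1 without I-BET151 replicate 2), NOG (−0.585 without DMSO replicate 2) and BMP4 (−0.845 without I-BET151 replicate 2) changed sign.

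Regions called only with I-BET151 (10) numbered 2 with equal numbers of peaks, 17 at 50 kb, 2 at start sites and 12 to 32 without 1 library. Those called only with DMSO (3) numbered 0 with −log10 p of at least 10, 5 with equal numbers, 1 at 5 kb, 6 at 50 kb, 0 at start sites and 3 to 12 without 1 library. Limma's upward calls (0) were 1 with −log10 p of at least 10, 3 at 50 kb and 0 to 2 without 1 library; its downward calls (1) were 2 with −log10 p of at least 5, 3 with equal numbers, 0 with coverage of 50%, 0 with ranks by −log10 p, 2 with the pileup and 0 to 2 without 1 library. Genes with both I-BET151 scores above (6) numbered 1 with equal numbers, 2 at start sites and 6 to 8 without 1 library; genes below (1) numbered 0 with −log10 p of at least 10, 0 with ranks by −log10 p, 3 at 5 kb, 0 at 50 kb, 4 at start sites and 1 to 2 without 1 library. Leaving out 1 library asks fewer lists to meet the rules for regions and for genes, so those counts can hardly fall. The cause of the other shifts was not tested. The BMP4 start region was not among the shared regions with −log10 p of at least 10, equal numbers or 50% coverage. Its difference of normal scores ran from −2.015 to −1.522 without 1 library. Its adjusted p by limma ran from 0.00891 to 0.139 in the other alternatives apart from the crossed pairing. With the replicate pairing crossed, chosen after seeing the data, it was 0.000859.

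Same-numbered libraries share only a number: their deviations correlated at −0.14 over 25627 shared regions. With the replicate number as a block, limma called 0 regions upward and 1 downward, and the mean difference remained 7.12. With the pairing crossed, chosen after seeing the data, limma called 0 upward and 4 downward.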
